A study of Gossypium hirsutum with 6 samples.

Results

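Sucrose synthase splits sucrose, the sugar that a seed imports, into fructose and UDP-glucose with the use of UDP, and UDP-glucose is the substrate from which cellulose and callose are made. Cotton fibers are single cells of the seed coat epidermis that elongate for weeks and then thicken with cellulose. In cotton, suppression of sucrose synthase is known to repress the initiation and growth of fibers. Upland cotton carries an A and a D subgenome, so most genes have a copy on each.

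The 2 genes described here, Gh_D05G037800 and Gh_A05G028400, were taken by their identifiers from the 73622 genes of the authors' table, in which both carry the Swiss-Prot description "Sucrose synthase". They were chosen by their measured values: their high counts and FPKM, their lower level in older fibers and the shift in the balance between them were known. Their levels, their changes and their balance are therefore given as a description, without a test. RNA was sequenced from fibers of Gossypium hirsutum, strain 63, with 3 libraries from fibers 5 days after the day of flowering (5DPA, days post-anthesis) and 3 from fibers 15 days after it (15DPA). No genetic change or other treatment is named for either stage, and the labels do not say how many plants gave each library. The deposited values are read counts and FPKM, fragments per kilobase of gene model and M counts of the library.

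Library totals ran from 15.61 to 16.94 M counts, with similar ranges in both stages. Along the leading principal component (63.5% of variance), 15DPA replicate 2 lay nearest to the 5DPA libraries. Replicate 3 of 15DPA had reads from 35 genes (20 or more each) that were nearly unread elsewhere (1 read or fewer over all other libraries together). The other libraries had 0 to 5 such genes. Conversely, 26 genes had 0 reads in 15DPA replicate 3 and 20 or more in each other library, and the other libraries had 0 to 2 such genes. Values without 15DPA replicate 2 or replicate 3 are therefore given below. Fiber genes were abundant in every library: the 66 genes described as expansin-A reached sums of 4472 to 6459 FPKM in 5DPA libraries and of 9185 to 13444 in 15DPA libraries, and the 51 fasciclin-like arabinogalactan protein genes to 3227 to 4326 and 5455 to 7481 FPKM. Markers of other cells were present too, and the sums of several were lower in the older fibers. The 92 histone genes, which stand for dividing cells, totalled 6187 to 9256 FPKM in the 5DPA libraries but 1344 to 2140 in the 15DPA libraries, with 3 of them at 0. Of the 43 phloem marker genes 8 were at 0, and their sum of 113 to 191 FPKM at 5DPA and 38.5 to 69.1 FPKM at 15DPA was set by 1 gene, Gh_D03G188900 (sieve element occlusion B), with 122 ± 38.4 and 9.46 ± 2.53 FPKM. Without it the sums were 27.7 to 31.6 FPKM at 5DPA and 29.5 to 58.1 FPKM at 15DPA. The 57 light-harvesting and Rubisco small subunit genes summed to 74.0 to 79.8 and 25.6 to 46.8 FPKM, with 8 at 0. The 81 seed protein genes summed to 507 to 734 and 609 to 913 FPKM, with 41 at 0. The part of these cells in the sucrose synthase values was not tested.

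Gh_D05G037800 lies on the minus strand of D05 from 3081072 to 3085623, and its gene model is 3478 bases long. Gh_A05G028400 lies on the minus strand of A05 from 3538573 to 3542061, with a model of 2382 bases. The coordinates are those of the authors' table, whose genome build is not given in the sources used here. The D model is 1.46 times as long as the A model, a difference of 1096 bases. Among 4885 other pairs of A and D genes, matched by description as set out below, the median ratio of model lengths was 1 and a ratio at least as high was found in 357 (7.31%). The A length divides by 3 without remainder and the D length does not. Since FPKM divides by this length, the level of the D copy relative to the A copy differs between FPKM and counts, whereas its change between libraries does not. How the authors' counting handled reads matching both copies is not known, so the share of each copy is uncertain.

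Gh_D05G037800 was among the most abundant genes of early fibers. It had 684, 731 and 768 FPKM in 5DPA replicates 1, 2 and 3, and 234, 253 and 307 FPKM in 15DPA replicates 1, 2 and 3. All 3 older libraries were thus below all 3 younger ones. The read counts behind these values were 37146, 42267 and 44024 at 5DPA and 13230, 14888 and 16697 at 15DPA. In rank by FPKM over all genes, it stood between place 43 and place 51 at 5DPA and between place 243 and place 325 at 15DPA. The mean was 728 ± 41.9 FPKM in young fibers and 265 ± 38.2 in older ones (SD, n = 3 each), so that the early level was 2.75 times the later one.

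Gh_A05G028400 was lower at 15DPA as well, by a smaller factor. It had 564, 549.5 and 665 FPKM in 5DPA replicates 1, 2 and 3, and 363, 322 and 338 FPKM in 15DPA replicates 1, 2 and 3. These ranges did not overlap either, and 5DPA replicate 3 was the highest library for both copies. The counts were 20985, 21753 and 26127 at 5DPA and 14053, 12983 and 12582 at 15DPA, and the ranks 63 to 70 and 179 to 208. The means were 593 ± 62.9 and 341 ± 20.6 FPKM (SD, n = 3 each), a ratio of 1.74. For both copies, then, the FPKM of 15DPA lay wholly below that of 5DPA, as it did for 37.3% of the 40054 genes with a mean of at least 1 FPKM, and for 50.2% in either direction, so this pattern was common in the table.

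**Figure D1:**
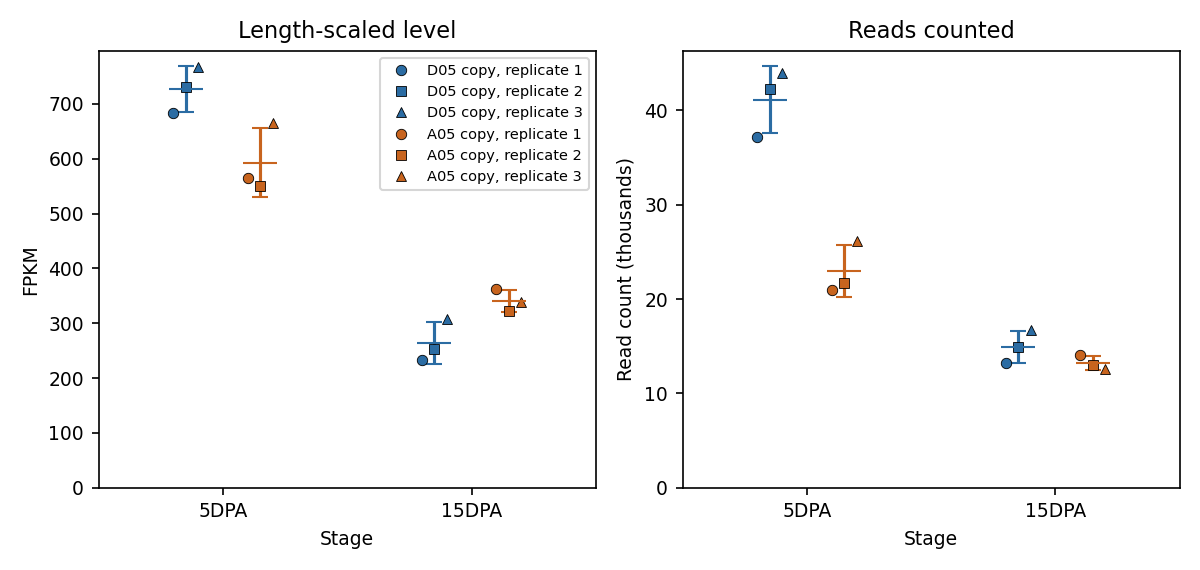
FPKM (left) and read count, with the axis divided as labelled (right) of the D05 copy Gh_D05G037800 (blue) and the A05 copy Gh_A05G028400 (orange) at 5DPA and 15DPA. Points are the 3 replicates of each stage, and the line and bar give the mean and SD; at 15DPA the D05 copy is below the A05 copy in FPKM in each replicate and is not in counts in replicates 2 and 3.

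The size of both changes depended on the scaling between libraries, and their order did not. With TMM scaling, which sets libraries to a common level over most genes, the edgeR log2 change from 5DPA to 15DPA was −1.16 ± 0.22 (SE) for Gh_D05G037800 and −0.50 ± 0.20 (SE) for Gh_A05G028400. With library totals alone, the scale on which FPKM is built, the log2 changes were −1.46 and −0.80, and the median of all genes moved from −0.04 to −0.33. Relative to the median of all genes, the D copy was at −1.12 under TMM and −1.13 with library totals, and the A copy at −0.46 and −0.47. In TMM-scaled counts per M the stages did not overlap for either copy, as for 23.7% of all genes tested in that direction. Without 15DPA replicate 3 the TMM log2 changes were −1.32 for the D copy and −0.52 for the A copy, and without 15DPA replicate 2 they were −1.06 and −0.40. Fewer cells that express a gene and less RNA of it per cell cannot be told apart in these bulk libraries.

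Together the copies summed to 1248, 1281 and 1433 FPKM in the 5DPA libraries and to 597, 574 and 646 FPKM in the 15DPA libraries. The mean sum of older fibers was 606 ± 36.4 FPKM against 1321 ± 98.5 for younger ones (SD, n = 3 each), a ratio of 0.459. The copies took 0.394% ± 0.0277 of all counts at 5DPA and 0.173% ± 0.0124 at 15DPA (SD, n = 3 each).

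The balance of the copies moved from D towards A. The D copy held 63.9%, 66.0% and 62.8% of the copies' counts in 5DPA replicates 1, 2 and 3, and 48.5%, 53.4% and 57.0% in 15DPA replicates 1, 2 and 3. Every 15DPA share was below every 5DPA share. Each share rests on 27283 to 70151 reads, and its exact 95% Clopper-Pearson interval was narrow, from 47.9% to 49.1% in 15DPA replicate 1 and from 56.5% to 57.6% in 15DPA replicate 3. Such intervals cover counting error only. The mean D share of counts was 64.2% ± 1.66 at 5DPA and 53.0% ± 4.28 at 15DPA (SD, n = 3 each).

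Per length, the copy with the higher level also changed. In FPKM the D copy held 54.8%, 57.1% and 53.6% of the sum in 5DPA replicates 1, 2 and 3, and 39.2%, 44.0% and 47.6% in 15DPA replicates 1, 2 and 3. On this scale the D copy was above the A copy in each 5DPA library and below it in each 15DPA library. In counts the D copy stayed above the A copy in 15DPA replicates 2 and 3 and was below it in replicate 1. In replicate 1 the A copy was thus the higher by both measures, and in replicates 2 and 3 the order depended on the lengths of the gene models.

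**Figure D2:**
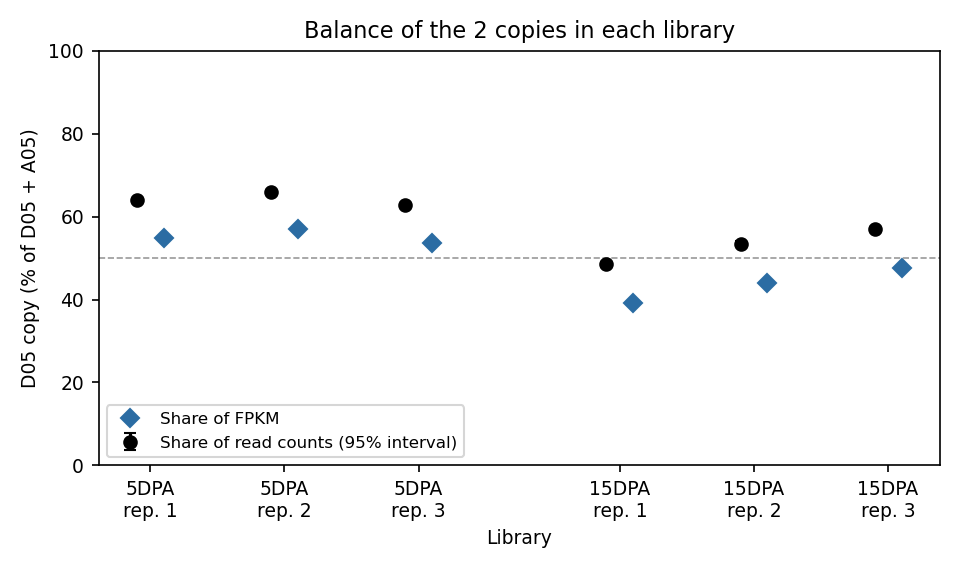
Share of the D05 copy in the sum of both copies in each of the 6 libraries, in percent of read counts (black, with 95% Clopper-Pearson intervals that are smaller than the points) and of FPKM (blue). Shares of counts run from 62.8% to 66.0% at 5DPA and from 48.5% to 57.0% at 15DPA, and the dashed line marks equal shares.

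The log2 ratio of D to A in FPKM was 0.30 ± 0.10 at 5DPA and −0.37 ± 0.25 at 15DPA (SD, n = 3 each). The mean change was −0.67, and it is the same in counts since the length cancels. With a single library left out it ran from −0.79, without 15DPA replicate 3, to −0.54, without 15DPA replicate 1. Scaling between libraries has no effect on a ratio taken within a library.

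As a background for this change, 4885 pairs were formed from 1 A and 1 D gene on chromosomes of the same number that shared an NR description held by no other gene there, both with a mean of at least 1 FPKM. The sources used here give no table of homoeologous genes, so some of these pairs may not be true copies. The sucrose synthase copies on A05 and D05 carry different NR descriptions and are not among them. In log2((FPKM + 1)) ratios the median change over these pairs was 0.00, and 5% of them changed by −0.70 or less; the sucrose synthase copies changed by −0.67, and 275 pairs (5.63%) by as much or more in that direction. Of the 91 pairs in which both genes had at least 100 FPKM, 2 (2.20%) did. In 17.5% of the 4885 pairs all 15DPA libraries lay closer to A than all 5DPA libraries, as they did for the sucrose synthase copies, and in 34.4% the stages lay apart in either direction.

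**Figure D3:**
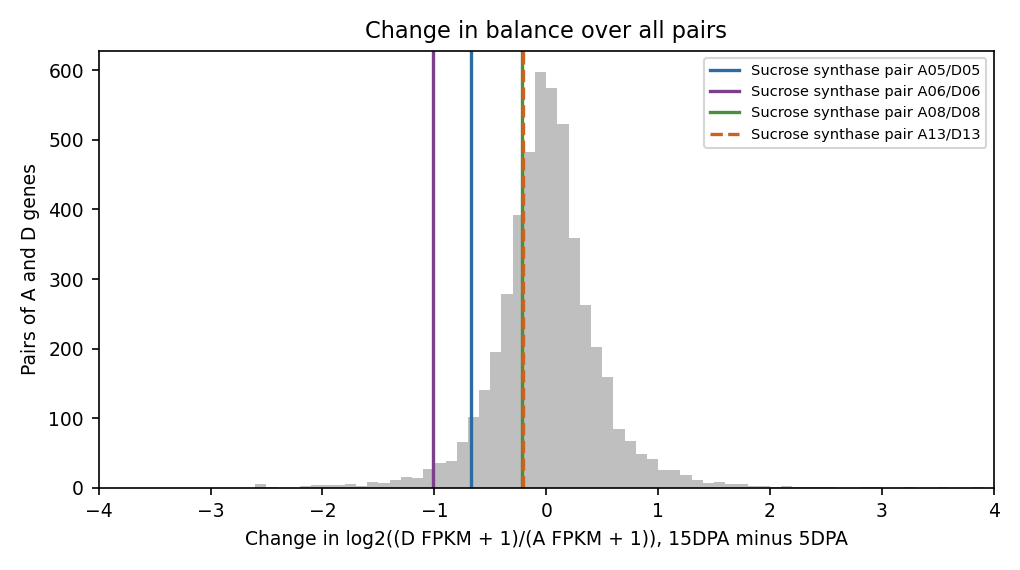
Number of A and D gene pairs (bars, 4885 pairs) by the change in log2((D FPKM + 1)/(A FPKM + 1)) from 5DPA to 15DPA, with values beyond the axis placed in the end bars. Lines mark 4 pairs of sucrose synthase genes, of which A06/D06 at −1.01 and A05/D05 at −0.67 lie farthest towards A.

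The table held 14 other genes described as sucrose synthases. Their sum was 257 ± 18.1 FPKM in the younger and 191 ± 68.1 in the older fibers (SD, n = 3 each), so that the A05 and D05 copies made up 83.7% ± 1.89 and 76.3% ± 7.13 of the family's FPKM. The lowest share, 68.1%, was that of 15DPA replicate 2. Only 7 of the 14 reached a mean of 1 FPKM and could be tested. Of these, 2 fell and 1 rose by edgeR's quasi-likelihood test with Benjamini-Hochberg adjustment over all genes, where 23.4% of all genes tested were called, 13.0% higher and 10.4% lower at 15DPA. The median log2 change of the 7 genes was −1.04, and that of all genes −0.04; without 15DPA replicate 3 or 5DPA replicate 2 the median of the 7 was −0.56 or −0.55. Without 15DPA replicate 1 or 5DPA replicates 2 or 3, 1 of the 7 rose and 0 fell, and without 15DPA replicate 3, 2 rose and 3 fell.

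Gh_D13G218400, on D13, had 18.8 ± 3.21 FPKM at the younger stage and fell by 1.28 ± 0.28 (SE) on the log2 scale to 6.44 ± 3.24 (edgeR adjusted p = 0.0200). Gh_A08G136800, on A08, whose NR description is SusA1, fell by 1.16 ± 0.31 (SE) on that scale, with 37.3 ± 6.30 FPKM early and 13.5 ± 5.59 later (edgeR adjusted p = 0.0336). Its D08 counterpart Gh_D08G135800 missed the threshold (edgeR adjusted p = 0.0855), at 32.9 ± 2.22 FPKM early and 11.2 ± 7.29 later. It passed by DESeq2 (adjusted p = 0.0189), with library totals in edgeR (adjusted p = 0.0446) and by limma on log2(FPKM + 1) (adjusted p = 0.0325). The call of Gh_D13G218400 was lost without 15DPA replicate 1 or 5DPA replicates 2 or 3 (edgeR adjusted p up to 0.0772), and that of Gh_A08G136800 in every such fit but the one without 15DPA replicate 3 (up to 0.113).

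Gh_D06G088900, on D06 from 15333316 to 15337006, went the other way. It had 1.30, 1.10 and 2.19 FPKM in 5DPA replicates 1, 2 and 3 and 16.4, 11.9 and 12.2 FPKM in the 15DPA replicates, and it rose by 3.43 ± 0.32 on the log2 scale (SE, edgeR adjusted p = 0.00211). It passed with each library left out in turn. Its 15DPA level was still far below those of the A05 and D05 copies. Gh_A06G089300, Gh_D06G089300 and Gh_A13G215000 did not pass (edgeR adjusted p = 0.136, 0.225 and 0.269). The 7 genes that were not tested include 4 described as sucrose synthase 5 or 6, forms that in Arabidopsis are found in the phloem, which had between 1 and 114 reads in a library. Gh_A07G017300 and Gh_D07G018700 had at most 5 reads in any library, and Gh_A10G168000 had none.

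**Figure D4:**
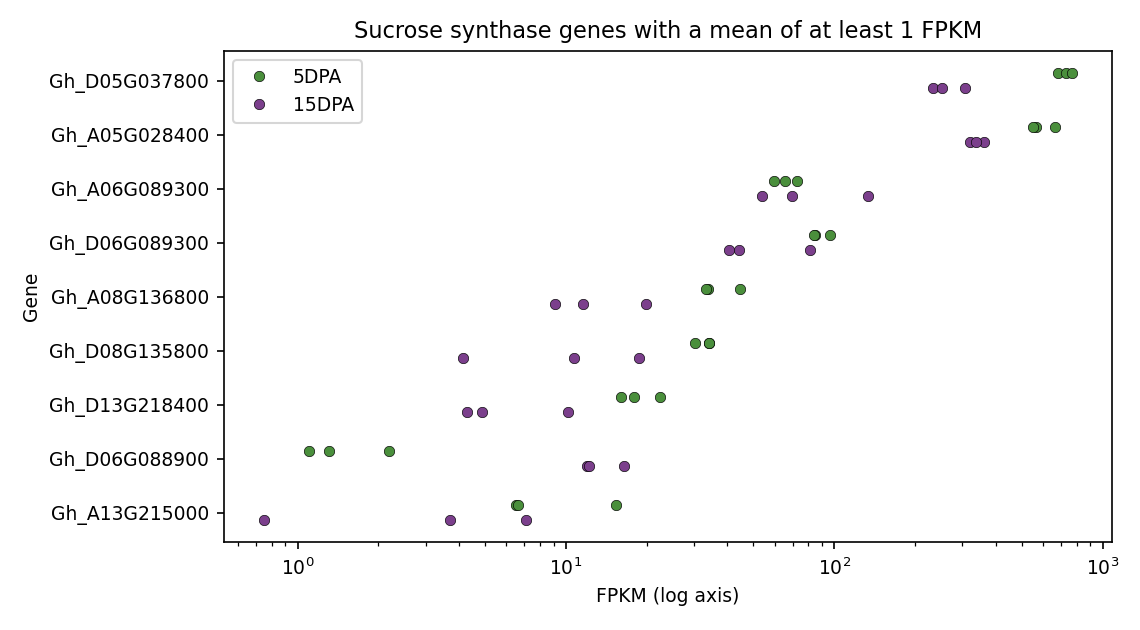
FPKM (log axis) of the 9 sucrose synthase genes with a mean of at least 1 FPKM, with a point for each library at 5DPA (green) and 15DPA (purple). The D05 and A05 copies lie at 234 FPKM or higher in every library and all others at 133 FPKM or lower.

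The family holds 3 further pairs of tested A and D genes with the same Swiss-Prot description on chromosomes of the same number. The genes of a pair also shared their NR description or were the only genes of that Swiss-Prot description there. Gh_D06G088900, which is also described as sucrose synthase, differs from Gh_A06G089300 in NR description and is in no pair. The A06 and D06 genes Gh_A06G089300 and Gh_D06G089300 moved towards A. The D gene held 59.5%, 58.8% and 60.9% of their counts in 5DPA replicates 1, 2 and 3, and 41.1%, 40.1% and 45.3% in the 15DPA replicates. Their change in log2((FPKM + 1)) ratio was −1.01 ± 0.13 (SE, limma adjusted p = 0.0110 over 4885 pairs). That comparison called 7.35% of all pairs in either direction and 3.54% of all pairs towards A. The call of the A06 and D06 genes was lost without 15DPA replicate 1 or 5DPA replicates 2 or 3 (limma adjusted p up to 0.0575). The A08 and D08 genes changed by −0.22 ± 0.26 (SE, limma adjusted p = 0.633), and the A13 and D13 genes, which form a pair by Swiss-Prot but not by NR description, by −0.21 ± 0.42 (SE, limma adjusted p = 0.784 over 9198 pairs matched by Swiss-Prot, of which 7.36% were called). Without the added 1 the change of the A13 and D13 genes was 0.05, so its sign depended on that setting. For the A06 and D06 genes it was then −1.03, and for the A08 and D08 genes −0.27. Whether the changes of these pairs differ from that of the A05 and D05 copies was not tested.

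The copies were taken as a pair on A05 and D05. The genes around them were not used in that choice, and were matched in the table. Of the 20 genes nearest to each copy, 10 on either side, 11 on A05 and 11 on D05 had a Swiss-Prot description also found beside the other copy. The nearest on both chromosomes was a gene described as EMB8 on the opposite strand, whose end lay 1145 bases from the sucrose synthase gene on A05 and 560 bases from it on D05, so that the genes point towards each other. Farther out on that side of both lay an auxin-induced 6B gene and an adrenodoxin-like gene, and on the other side the subunit K gene of translation initiation factor eIF3, on D05 behind a receptor kinase gene with no reads.

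Of 28 neighbours tested, 8 rose and 1 fell (edgeR adjusted p under 0.05), beside 13.0% higher and 10.4% lower over all genes tested. With library totals 5 rose and 1 fell, and without 15DPA replicate 2 the counts were 7 and 3. Without 15DPA replicate 1 and without 5DPA replicate 2, 3 and 1 rose and 0 fell, and without 5DPA replicate 3, 4 rose and 0 fell. Both EMB8 genes rose: Gh_A05G028300 by 1.24 ± 0.23 (SE) on the log2 scale, from 1.95 ± 0.146 to 3.75 ± 0.890 FPKM (edgeR adjusted p = 0.0118), and Gh_D05G037700 by 0.88 ± 0.17 (SE), from 1.47 ± 0.139 to 2.21 ± 0.165 FPKM (edgeR adjusted p = 0.0142). The first call was lost without 5DPA replicate 2, and the second without 15DPA replicate 1 or 5DPA replicates 2 or 3. The use of strand in the counting is not given, so reads of overlapping ends could not be told apart. These 2 genes were singled out for their position after their values were seen.

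By level, the first 3 neighbours on D05 were Gh_D05G037100, described as pectinesterase inhibitor 3, Gh_D05G037000, of no known function, and the eIF3 subunit K gene Gh_D05G038000. Gh_D05G037100 stood at 893 ± 133 FPKM early and 671 ± 49.1 later and missed the threshold (edgeR adjusted p = 0.702), while Gh_D05G037000 rose from 44.1 ± 4.75 to 75.4 ± 21.1 FPKM (edgeR adjusted p = 0.0169). On A05 they were the eIF3 subunit K gene Gh_A05G028500, Gh_A05G027900 and the brefeldin A-inhibited exchange protein gene Gh_A05G029400. Gh_A05G027900 rose by 0.66 ± 0.15 on the log2 scale (SE, edgeR adjusted p = 0.0212), and Gh_A05G029400 by 0.91 ± 0.15 on that scale (SE, edgeR adjusted p = 0.00922). Both eIF3 genes had log2 changes of 0.00 and 0.01 and did not pass. Among 7 neighbour pairs with a shared description and both genes tested, log2((FPKM + 1)) ratios of D to A changed by −0.30 to 0.47. The median change was 0.15, on the scale on which the sucrose synthase copies changed by −0.67. At low FPKM the added 1 narrows such changes, and several of these neighbours were low, so the sizes are not directly comparable. The 0.47 was that of the kinase genes described as FAB1B, with means of 2.62 FPKM on A05 and 2.85 on D05. Their edgeR log2 changes were 0.16 and 0.80. The calls of Gh_D05G037000 and Gh_A05G027900 were each lost without 15DPA replicate 1 or 5DPA replicate 2, and also without 5DPA replicate 3 and 5DPA replicate 1 respectively; that of Gh_A05G029400 held without each library in turn. With library totals Gh_A05G027900 did not pass either, at a log2 change of 0.37 (edgeR adjusted p = 0.0775).

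**Figure D5:**
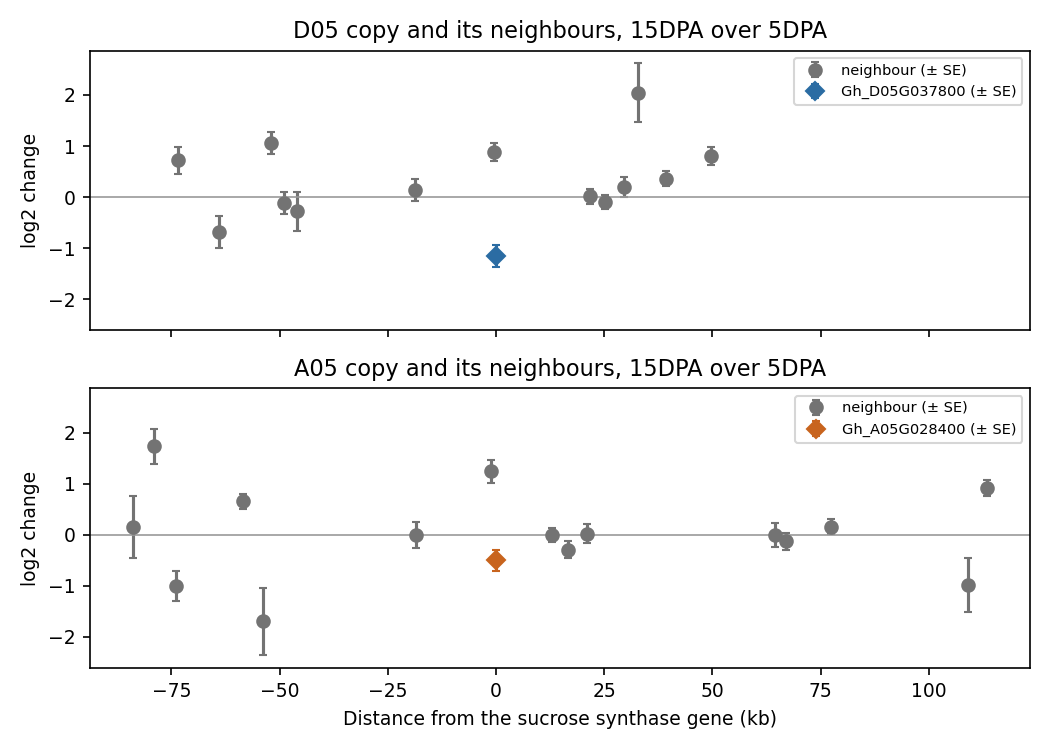
edgeR log2 change from 5DPA to 15DPA (points with SE) of the D05 copy (top, diamond) and the A05 copy (bottom, diamond) and of their tested neighbours, against the distance between the genes in kilobases. The copies stand at −1.16 and −0.50, and the EMB8 genes next to them at 0.88 and 1.24.

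The genes whose profiles over the 6 libraries were nearest to each copy were found by the root mean square distance between mean-centred log2(FPKM + 1) values, among 13824 other genes with a mean of at least 10 FPKM. For Gh_D05G037800 they were Gh_A11G338100, an H/ACA ribonucleoprotein subunit that takes part in the modification of ribosomal RNA, Gh_A07G240800, described as ABC transporter B19, an auxin carrier in Arabidopsis, and Gh_A04G108000, described as DET2, a reductase of brassinosteroid synthesis in Arabidopsis. The protein disulfide isomerase gene Gh_A11G162300 and the inositol oxygenase gene Gh_D05G132200 followed, and all 5 lay within 0.067 to 0.11 log2 units. The added 1 narrows changes more at lower FPKM, so nearness depends in part on level. In that order, the edgeR log2 changes of the 5 were −1.38, −1.14, −1.33, −1.03 and −1.02, beside −1.16 for the D copy. Whether near profiles share more than the difference between stages was not tested. For Gh_A05G028400 they were genes of the ribosomal proteins L15 (Gh_A04G131100) and L30 (Gh_D03G150100), leucine aminopeptidase (Gh_A07G030800), a coiled-coil-helix protein (Gh_A03G206200) and inositol-3-phosphate synthase (Gh_A02G161900), within 0.029 to 0.079 log2 units. The copies lay 0.37 log2 units from each other. The A copy was only number 787 in the order of genes nearest to the D copy, and the D copy number 4945 in the order from the A copy.

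Among other genes that act on sucrose and its products, the soluble acid invertases had similar sums of FPKM in both stages, beside the lower sum of the sucrose synthase copies in older fibers. Invertases split sucrose into glucose and fructose without forming UDP-glucose, and the soluble acid forms act in the vacuole. The 10 soluble acid genes totalled 1018 ± 210 FPKM in younger and 1028 ± 160 in older fibers (SD, n = 3 each), and by edgeR 0 of the 6 tested passed. Under TMM the median log2 change of these 6 was 0.28, beside −0.04 for all genes. The sum of the sucrose synthase copies was 1.42, 1.39 and 1.14 times that of the soluble acid invertases in 5DPA replicates 1, 2 and 3, and 0.496, 0.580 and 0.727 times in 15DPA replicates 1, 2 and 3. The copies were thus above the soluble acid invertases in each younger library and below them in each older one, on the FPKM scale. That order depends on the lengths of the gene models, and these sums were not compared in read counts. The most abundant invertases, Gh_A12G223400 and Gh_D12G217900, had 558 ± 108 and 413 ± 103 FPKM in younger and 524 ± 70.7 and 464 ± 97.5 in older fibers (edgeR adjusted p = 0.556 and 0.244), and the next, Gh_D12G238100, had 28.5 ± 2.81 and 21.8 ± 3.67 FPKM (edgeR adjusted p = 0.629). Over all invertases, 2 of 31 rose and 4 fell, of which 2 that fell encode cell wall forms; over all genes tested 13.0% rose and 10.4% fell, and the counts below stand beside the same shares. With library totals those shares were 7.24% and 19.2%, or 26.5% in either direction.

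In the resynthesis of sucrose, 3 of 11 sucrose-phosphate synthase and sucrose-phosphatase genes rose and 0 fell. Gh_D08G279500 rose by 0.96 ± 0.19 (SE, edgeR adjusted p = 0.0150), and the more abundant Gh_D13G231900 and Gh_D04G108900 did not pass (edgeR adjusted p = 0.363 and 0.266). Of 47 genes that act on hexoses or UDP-glucose, 12 rose and 6 fell; with library totals alone 4 rose and 6 fell. Of 15 fructokinase genes 2 rose and 3 fell, and of 10 hexokinase genes 2 rose and 2 fell. Of 8 phosphoglucomutase genes 5 passed, each higher at 15DPA, among them Gh_D04G212800, with 90.3 ± 13.4 FPKM early and 152 ± 12.8 later (edgeR adjusted p = 0.0138). UDP-glucose pyrophosphorylase, which makes UDP-glucose from glucose 1-phosphate, had 3 of 14 genes higher and 1 lower. Its most abundant gene Gh_D11G181900 rose by 0.66 ± 0.19 (SE, edgeR adjusted p = 0.0426) under TMM and had a log2 change of 0.36 with library totals, where it did not pass. Gh_A11G180000 did not pass under TMM (edgeR adjusted p = 0.0519), though it did by DESeq2 (adjusted p = 0.00481). With library totals Gh_A11G180000 had a log2 change of 0.26 and did not pass (edgeR adjusted p = 0.197), nor did it by limma on log2(FPKM + 1) (adjusted p = 0.228).

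Of 35 sucrose transporter and SWEET genes, which carry sugars across membranes, 5 rose and 1 fell; with library totals 2 rose and 1 fell. The SWEET15 gene Gh_A04G120500 rose by 1.10 ± 0.30 (SE, edgeR adjusted p = 0.0375), although its FPKM ranges overlapped and it did not pass with library totals (edgeR adjusted p = 0.0872), and Gh_D04G160000 and the SWEET1 gene Gh_D02G082500 did not pass (edgeR adjusted p = 0.242 and 0.180). Of 43 cellulose and callose synthase genes, the users of UDP-glucose, 16 rose and 2 fell; with library totals 7 rose and 3 fell. The 3 most abundant, the cellulose synthase genes Gh_A08G167200, Gh_D08G165700 and Gh_D05G009600, rose by 0.61, 0.65 and 0.84 (SE 0.16, 0.14 and 0.15; edgeR adjusted p = 0.0302, 0.0205 and 0.0119). With library totals Gh_A08G167200 and Gh_D08G165700 had log2 changes of 0.32 and 0.35 and did not pass (edgeR adjusted p = 0.106 and 0.0578), and Gh_D05G009600 had 0.54 and passed (edgeR adjusted p = 0.0178). Over these lists the medians of the log2 change were 0.35 for invertases, 0.27 for resynthesis, −0.04 for hexose and UDP-glucose genes, 0.21 for transporters and 0.35 for cellulose and callose synthases, beside −0.04 for all genes and the −1.16 and −0.50 of the sucrose synthase copies. With library totals these 5 medians were 0.07, −0.03, −0.34, −0.09 and 0.05, with that of all genes at −0.33, and 0 invertases rose and 4 fell. The medians also moved with single libraries: for transporters to −0.02 or 0.14 when 15DPA replicate 3 or replicate 1 was left out and to 0.60 when 5DPA replicate 1 was, for resynthesis to 0.59 without 5DPA replicate 1, for invertases to 0.16 without 5DPA replicate 2 and 0.23 without 15DPA replicate 3, and for hexose and UDP-glucose genes up to 0.18, without 5DPA replicate 3, and above 0 without every library but 15DPA replicate 1. Without 15DPA replicate 1 the counts of calls in these 5 lists were 0, 0, 1, 2 and 4, and without 5DPA replicate 2 they were 1, 0, 3, 1 and 4. The call of each gene named in these lists was lost without at least 1 library.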

How the data were processed

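The members and lists were chosen with earlier results of these data known. Poly(A) RNA of 6 libraries was sequenced as paired ends, per the labels' protocols. The deposited values are a whole-number read count and an FPKM for each gene and library, per the file headers; HISAT and StringTie are named without versions in the submitters' processing notes, and no source used here names the build or the counting settings. FPKM uses the gene model's length and the library total. The 2 empty lines of the table were left out. The 40054 genes whose FPKM averaged 1 or more were tested with edgeR 4.0.16 (quasi-likelihood, TMM, two-sided, Benjamini-Hochberg, threshold 0.05) in R 4.3.3, on all 6 libraries. Balance was tested over pairs with limma 3.58.1 on ratios of FPKM + 1. Both scripts were tested on simulated data. Each SE of an edgeR log2 change was derived from the quasi-likelihood F statistic, also for the 2 copies, where it is not offered as a test. The smallest exact permutation p for 3 against 3 libraries, two-sided, is 0.1. The labels call the libraries biological replicates, and p-values set the difference between stages against the spread between libraries. Lists were matched by Swiss-Prot description, or NR where there was none, which is imprecise. Named genes were the copies, the tested family, the 3 most abundant genes of each list, the 5 nearest profiles and the 3 most abundant neighbours of each copy. DESeq2 1.42.0, other scalings, filters, pseudocounts and leaving out each library were the alternatives.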

Additional observations from a re-analysis of the deposited data

How the results depend on the processing

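The direction of both copies' changes and of their balance was the same in every alternative run. By limma on log2(FPKM + 1) and on log2(FPKM + 0.1), with library totals and as a ratio of mean FPKM, an alternative added after seeing the data, the log2 change of Gh_D05G037800 was −1.46, −1.47, −1.46 and −1.46, and that of Gh_A05G028400 −0.79, −0.79, −0.80 and −0.80. With a library left out they ran from −1.32 to −1.06 and from −0.59 to −0.38, and the change in balance from −0.79 to −0.54. Left-out libraries moved the count of calls from 9357 to between 2319 and 11434 over all genes, from 3 to between 1 and 5 for other sucrose synthases, from 6 to between 0 and 13 for invertases, from 3 to between 0 and 3 for resynthesis, from 18 to between 1 and 20 for hexose and UDP-glucose genes, from 6 to between 1 and 6 for transport, from 18 to between 4 and 21 for glucan synthases, from 359 to between 31 and 384 for pairs, and from 9 to between 1 and 10 for neighbours. With library totals 10 hexose and UDP-glucose, 3 transport and 10 glucan synthase genes were called; by limma with a pseudocount of 1, 11 glucan synthase genes; and with 0.1, 11 hexose and UDP-glucose, 9 glucan synthase and 1 resynthesis gene. At a mean FPKM of at least 5, where fewer genes were tested, 3 transport genes were called. Of all calls 55.6% were higher under TMM and 27.3% with library totals. Pairs formed by Swiss-Prot description, also added later, gave 677 calls over 9198 pairs. The cause of these moves was not tested.

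The labels do not say whether a replicate number pairs libraries. The deviations of same-numbered libraries from their stage means correlated at −0.24, 0.35 and 0.07 for numbers 1, 2 and 3. Not every library correlated best with its own number, though those numbered 2 did. With 3 libraries in each stage these correlations cannot decide whether the numbers pair libraries. With the replicate number as a block, 182 pairs changed balance, and the log2 changes of the copies were −1.17 and −0.50.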
